A study of Mus musculus with 12 samples.

Results

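Interleukins are secreted proteins through which immune, epithelial and stromal cells signal to each other, and the genes described here are the interleukins and interleukin receptors of an immune panel whose symbol starts with Il and a digit, without the IL-1 cytokines and their receptors, Il18, Il6, Il10, the IL-6 receptor chains, and the receptor chains Il2ra, Il4ra, Il5ra and Il7r. That rule gave 44 of the 750 genes analysed. They are 23 ligands and 21 receptor chains, decoy receptors or receptor-like genes. They were measured in cells of peritoneal ascites from mice carrying tumour cells labelled as ovarian cancer, with a NanoString panel (770 genes per the design text), which counts RNA molecules one by one through barcoded probes. The cells are a mixture of tumour and host cells, so fewer cells of a type and less RNA per cell cannot be told apart.

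There were 12 samples in 4 groups of 3, and mice of all 4 had been injected intraperitoneally with tumour cells, with ascites recovered on day 21 for RNA. Untreated FAKWT samples came from tumour cells titled KTFAKWT, and untreated FAKKD samples from tumour cells titled KTFAKKD. FAK is focal adhesion kinase, a tyrosine kinase of cell adhesion sites, and the labels do not expand FAKKD. The other two groups were titled KTFAKWT and given either the FAK inhibitor VS4716, at 100 mg per kg by gavage with 2 doses a day, or vehicle by gavage. The genotype field of the 3 vehicle samples reads KTFAKKD against their titles. The titles were followed, and the inhibitor was also compared with untreated FAKWT samples. The design text names the injected cells KMF, and the sources used here name no mouse strain, age or sex. No label ties each sample to its own mouse, so the p-values reflect the spread among these samples, which may be technical.

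Most interleukins bind receptors built from several chains. A ligand-specific chain is combined with a shared one, such as the common gamma chain Il2rg for IL-2, IL-4, IL-7, IL-9, IL-15 and IL-21, and most of these receptors signal through JAK kinases and STAT transcription factors. Receptors of the IL-1 family, which include those for IL-18, IL-33 and IL-36, instead pass their signal through the adaptor MyD88. In ascites of ovarian tumours, interleukins are known as signals between tumour cells, macrophages and lymphocytes.

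The deposited values are log2 values, and 2 raised to each of them was a whole number times 1 factor per sample for 100% of genes within 0.01. Molecule counts were recovered in this way, and they summed to 588778 to 760152 per sample. The factor was 0.753 ± 0.085 (SD, n = 3) in FAKWT, 0.788 ± 0.094 with vehicle, 1.17 ± 0.063 with the inhibitor and 1.46 ± 0.19 in FAKKD samples. It raises every gene of a sample alike, and the panel median of a sample, over 750 genes, ran from 6.54 to 6.74 (log2) in FAKWT, 6.67 to 6.87 with vehicle, 7.40 to 7.64 with the inhibitor and 7.69 to 7.74 in FAKKD samples. The median log2 fold change over the 750 genes was 0.95 for FAKKD against FAKWT samples and 0.54 for the inhibitor against vehicle. Each comparison is therefore given on 2 scales, as deposited and relative to the panel (the panel-relative scale), for which every sample was moved to a common panel median. A gene is said to have risen or fallen only where it passed an adjusted p of 0.05 on both scales in 1 direction (limma over all 12 samples, Benjamini-Hochberg over 750 genes). The 2 scales are not independent checks. In FAKKD samples all 177 genes higher relative to the panel were also higher as deposited. All 71 genes lower as deposited were also lower relative to the panel. With the inhibitor these counts were 133 and 79. The panel-relative scale thus decided each rise and the deposited scale each fall. Values of single samples are listed in the order of the labels, which is replicates 1, 2 and 3 for FAKWT, 3, 4 and 9 for vehicle, 4, 5 and 6 for the inhibitor and 3, 4 and 5 for FAKKD.

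Promoter sequence is shown for 4 receptor genes that passed on both scales in FAKKD samples, Il1rl1 and Il21r, which rose, and Il13ra1 and Il22ra1, which fell. They were chosen after their values were seen. Each run holds 250 bases before and 50 after the start of a transcript, from RefSeq, build GRCm38.p6, on the plus strand. Capitals mark 2 motifs, searched on both strands: the GATA motif AGATAA or TGATAA, bound by GATA factors of mast cells and T cells among others, and the GC box CCCGCCC, bound by Sp1-type factors. The motifs do not overlap each other. Il1rl1 has 2 start sites in the table, at chr1:40429320-40429619 and chr1:40439379-40439678, and the others are Il21r at chr7:125603179-125603478, Il22ra1 at chr4:135727909-135728208 and Il13ra1 at chrX:36111858-36112157.
Il1rl1, start site 1: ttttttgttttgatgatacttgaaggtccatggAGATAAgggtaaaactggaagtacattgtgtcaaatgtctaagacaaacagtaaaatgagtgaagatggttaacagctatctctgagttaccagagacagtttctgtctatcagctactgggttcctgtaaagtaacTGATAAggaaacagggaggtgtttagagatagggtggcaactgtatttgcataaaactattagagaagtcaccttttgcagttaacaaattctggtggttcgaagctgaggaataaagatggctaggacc
Il1rl1, start site 2: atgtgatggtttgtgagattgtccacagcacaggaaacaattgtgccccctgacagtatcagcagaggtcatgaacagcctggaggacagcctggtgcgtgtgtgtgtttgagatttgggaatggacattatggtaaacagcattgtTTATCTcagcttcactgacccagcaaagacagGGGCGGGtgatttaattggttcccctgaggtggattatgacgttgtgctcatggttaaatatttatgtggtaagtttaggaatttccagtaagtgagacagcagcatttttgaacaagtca
Il21r: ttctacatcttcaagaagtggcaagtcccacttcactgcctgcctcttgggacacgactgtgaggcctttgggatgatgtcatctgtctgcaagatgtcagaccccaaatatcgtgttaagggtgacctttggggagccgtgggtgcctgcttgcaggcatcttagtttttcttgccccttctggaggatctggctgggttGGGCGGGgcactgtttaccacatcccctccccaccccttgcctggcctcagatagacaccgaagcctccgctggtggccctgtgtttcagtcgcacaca
Il22ra1: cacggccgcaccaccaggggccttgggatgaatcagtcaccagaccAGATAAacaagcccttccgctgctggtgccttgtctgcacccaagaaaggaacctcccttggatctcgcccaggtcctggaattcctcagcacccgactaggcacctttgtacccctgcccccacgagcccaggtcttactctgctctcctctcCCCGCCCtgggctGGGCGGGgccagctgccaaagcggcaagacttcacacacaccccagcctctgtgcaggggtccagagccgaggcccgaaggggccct
Il13ra1: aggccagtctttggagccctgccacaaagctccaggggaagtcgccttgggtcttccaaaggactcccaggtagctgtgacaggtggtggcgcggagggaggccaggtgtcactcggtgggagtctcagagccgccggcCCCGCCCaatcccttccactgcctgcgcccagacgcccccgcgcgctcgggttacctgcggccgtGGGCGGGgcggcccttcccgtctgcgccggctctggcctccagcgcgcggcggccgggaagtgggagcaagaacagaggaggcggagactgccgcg

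The first Il1rl1 run holds a GATA match at base 34 and another at base 171 and no GC box, while the second holds a GATA match at base 148 and a GC box at base 180. Il22ra1 holds a GATA match at base 47 and GC boxes at bases 201 and 214. Il21r holds a GC box at base 202 and Il13ra1 holds them at bases 140 and 205, and neither holds a GATA match. Of all 32817 promoters in the table, 18.6% hold the GATA motif and 25.6% the GC box. Among members, 31 of 44 have an entry in this table, and 9 of these 31 hold a GATA match at any of their start sites. That count is per gene and the 18.6% is per promoter, so they cannot be compared directly. A match is a string of letters and does not show that a factor binds there.

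Most of these genes were counted close to the lower end of the panel. Of the 44, 27 had a mean log2 value under 4.5 over the 12 samples (61.4%, against 174 of 750 genes or 23.2% on the panel), and they are called near the floor below. They were 19 of the 23 ligands and 8 of the 21 receptors and regulators. Just under the limit lay Il25 (4.49), Il1rl2 (4.42) and Il23a (4.40), and just over it Il12a (4.60) and Il15 (4.76). In FAKWT and vehicle samples the means were 3.73 and 3.79 for Il12a and 4.02 and 4.26 for Il15. Both genes thus lie above the floor only through the inhibitor and FAKKD samples, where they are higher. Above it, besides the ligands Il12a, Il15, Il16 and Il34, were 13 receptors: Il10ra, Il11ra1, Il13ra1, Il15ra, Il17ra, Il18r1, Il18rap, Il1rl1, Il21r, Il22ra1, Il2rb, Il2rg and Il3ra.

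In FAKKD samples, compared with untreated FAKWT samples, 4 members rose and 3 fell on both scales. The genes that rose were the receptor genes Il10ra, Il21r and Il1rl1 and the cytokine gene Il4, each by a log2 fold change of 2.09 to 2.24 as deposited and 1.04 to 1.18 relative to the panel. The genes that fell were the ligand Il34 and the receptors Il13ra1 and Il22ra1, by 0.30 to 0.80 as deposited and by 1.35 to 1.85 relative to the panel. These 7 are 15.9% of the members (33.1% of the panel passed the same rule). As deposited 25 members were higher and 3 lower (74.5% of the panel called, 65.1% higher and 9.47% lower). On the panel-relative scale 4 members were higher and 7 lower (58.1% of the panel called, 23.6% higher and 34.5% lower). The members' median log2 fold change was 0.86 against 0.95 for the panel, and relative to the panel -0.19 against -0.10. Of the 17 members above the floor 6 passed on both scales, and of the 27 near it 1 did. The samples of the groups did not overlap for 32 members as deposited (76.8% of the panel) and for 16 relative to the panel (61.2%).

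With the inhibitor, compared with vehicle, 4 members rose and 2 fell on both scales. The receptor genes Il10ra, Il1rl1 and Il18r1 and the cytokine subunit gene Il12a rose, by 1.26 to 2.44 as deposited and 0.52 to 1.69 relative to the panel. The receptor chains Il15ra and Il18rap fell, with values of -0.65 and -0.89 as deposited and -1.39 and -1.63 relative to the panel. These 6 are 13.6% of the members, against 28.3% of the panel. As deposited 17 members were higher and 2 lower (59.7% of the panel called, 49.2% higher and 10.5% lower). On the panel-relative scale 4 members were higher and 7 lower (46.5% of the panel called, 17.7% higher and 28.8% lower). The members' median was 0.49 against 0.54 for the panel, and relative to the panel -0.25 against -0.20. The samples did not overlap for 21 members as deposited (66.9% of the panel) and for 16 relative to the panel (54.5%). Il10ra and Il1rl1 rose in both comparisons. The groups compared share no samples, but both tests use 1 estimate of the spread from all 12 samples. Against untreated FAKWT in place of vehicle, 17 members were higher with the inhibitor and 0 lower as deposited (64.3% of the panel called, 53.7% higher and 10.5% lower), and 5 rose and 0 fell on both scales (29.3% of the panel).

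**Figure D1:**
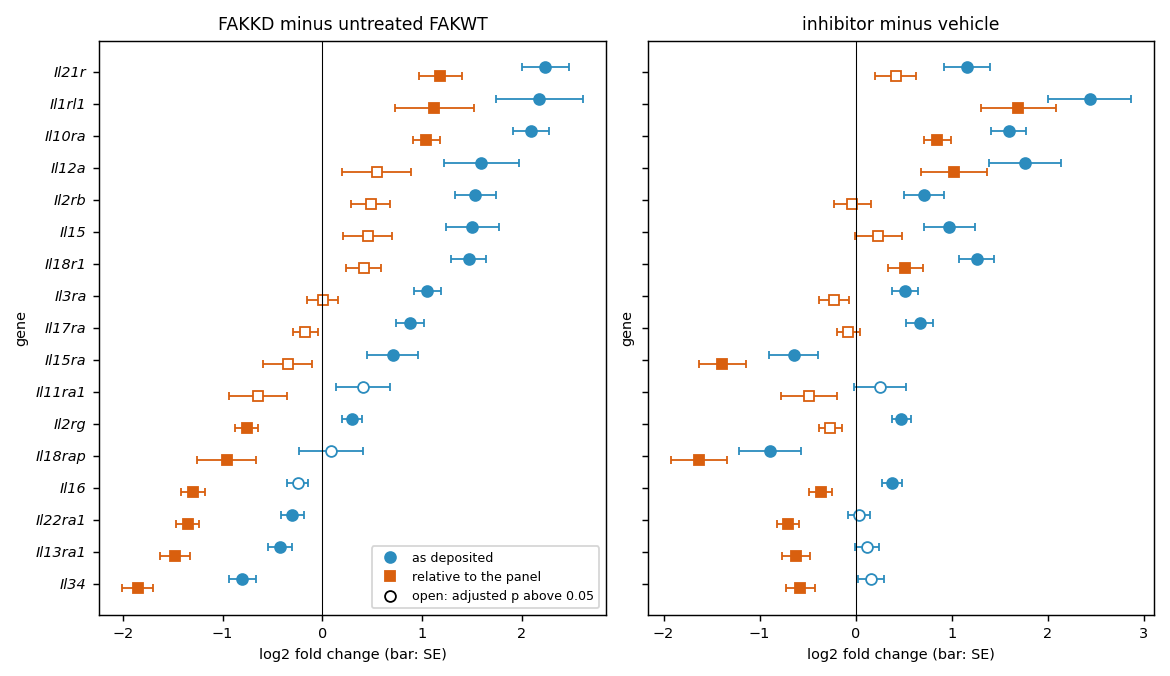
Log2 fold change (x axis, bar: SE) of the 17 interleukin genes with a mean log2 value of at least 4.5 (y axis), in FAKKD against untreated FAKWT samples (left) and with the inhibitor against vehicle (right), 3 samples per group. Blue circles are values as deposited and orange squares are relative to the panel; filled symbols passed an adjusted p of 0.05. Every orange square lies left of its blue circle, and Il34 is lowest in the left panel at -0.80 and -1.85.

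Between vehicle and untreated FAKWT samples 0 members passed (limma; 0.00% of the panel), and 5 of 44 had an unadjusted p under 0.05 (93 of 750 genes). The samples of both control groups did not overlap for 4 members as deposited (16.1% of the panel). The member with the largest difference was Il1rl1, with -1.31 ± 0.44 as vehicle minus FAKWT (SE; adjusted p = 0.20). Il4 had 0.91 ± 0.33 (adjusted p = 0.25) and Il21 had -0.94 ± 0.42 (adjusted p = 0.39), both near the floor.

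Among receptors of the common gamma chain family, Il21r, the receptor of IL-21 on B, T and NK cells, rose in FAKKD samples. It stood at 5.42, 6.20 and 5.79 in FAKWT, 6.79, 6.35 and 5.92 with vehicle, 7.61, 7.37 and 7.56 with the inhibitor and 8.0, 7.89 and 8.23 in FAKKD samples. Every FAKKD sample lay above the other groups, and every inhibitor sample lay above both control groups. The log2 fold change in FAKKD samples was 2.24 ± 0.24 (SE, n = 3 and 3; adjusted p = 7.27e-06), and 1.18 ± 0.21 on the panel-relative scale (adjusted p = 4.11e-04). With the inhibitor it was 1.16 ± 0.24 against vehicle (adjusted p = 0.00126), but 0.42 ± 0.21 relative to the panel, which did not pass (adjusted p = 0.133). Against untreated FAKWT samples the inhibitor value was 1.71 and 0.85 relative to the panel, and both passed (adjusted p = 6.37e-05 and 0.00478).

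Il2rg, the common gamma chain itself, and Il2rb, the beta chain of the IL-2 and IL-15 receptors, did not pass on both scales. Il2rg had a mean of 8.43 ± 0.13 (SD, n = 3) in FAKWT and 8.72 ± 0.08 in FAKKD samples, so it was higher as deposited by 0.29 (adjusted p = 0.0206) and lower relative to the panel by -0.76 (adjusted p = 1.21e-04). In recovered counts it went from 473, 484 and 422 in FAKWT to 313, 240 and 327 in FAKKD samples. Il2rg is thus a member whose direction is set by the scale. Il2rb was higher as deposited by 1.53 ± 0.21 in FAKKD samples and by 0.71 ± 0.21 with the inhibitor, and relative to the panel it had 0.48 (adjusted p = 0.0511) and -0.03 (adjusted p = 0.921).

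Il15 and Il15ra encode a cytokine of T and NK cells and the chain that presents it on the surface of the producing cell. Il15ra fell with the inhibitor, standing at 5.37, 5.60 and 5.28 with vehicle and 5.09, 4.99 and 4.22 with the inhibitor, against 5.51, 5.33 and 5.18 in FAKWT and 6.39, 6.06 and 5.69 in FAKKD samples. The 3 inhibitor samples were the lowest of the 12 and the 3 FAKKD samples the highest, and the lowest inhibitor sample, replicate 6, rests on 15 molecules. The inhibitor value was -0.65 ± 0.26 (adjusted p = 0.0483) and -1.39 ± 0.25 on the panel-relative scale (adjusted p = 5.47e-04). As deposited it no longer passed without inhibitor replicate 6 (-0.37, adjusted p = 0.199) or without any 1 of the 3 vehicle samples (-0.55 to -0.71), nor against untreated FAKWT (-0.57, adjusted p = 0.0701). In FAKKD samples Il15ra was higher as deposited by 0.70 ± 0.26 (adjusted p = 0.0268) and had -0.35 on the panel-relative scale (adjusted p = 0.255). Il15 was higher as deposited in both comparisons, by 1.5 ± 0.27 and 0.98 ± 0.27, and relative to the panel its values of 0.45 and 0.24 did not pass (adjusted p = 0.135 and 0.471).

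Of the genes tied to type 2 immunity, Il1rl1 rose in both comparisons. It encodes ST2, the receptor of IL-33, carried by mast cells, group 2 innate lymphoid cells and some T cells. It stood at 6.52, 7.24 and 7.90 in FAKWT, 6.84, 5.82 and 5.08 with vehicle, 8.25, 8.26 and 8.53 with the inhibitor and 9.35, 8.92 and 9.92 in FAKKD samples. The groups did not overlap in either comparison, and the control samples were spread widely, from 5.08 in vehicle replicate 9 to 7.90 in FAKWT replicate 3. The change in FAKKD samples was 2.17 ± 0.44 (adjusted p = 8.51e-04) and 1.12 ± 0.39 on the panel-relative scale (adjusted p = 0.0270). That second value no longer passed without FAKWT replicate 1 (0.83, adjusted p = 0.115), FAKWT replicate 2 (adjusted p = 0.0594), FAKKD replicate 3 (adjusted p = 0.0579) or FAKKD replicate 5 (0.85, adjusted p = 0.104). With the inhibitor the change was 2.44 ± 0.44 (adjusted p = 5.04e-04) and 1.69 ± 0.39 on the panel-relative scale (adjusted p = 0.00353), and it passed on both scales without each of the 6 samples in turn. Against untreated FAKWT it was 1.13 (adjusted p = 0.0396) and 0.27 on the panel-relative scale (adjusted p = 0.591), so this rise rests on the vehicle samples as controls.

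Il1rl1 moved with the summed markers of mast cells and eosinophils, sample by sample. Summed over the 7 of 9 listed markers that were measured (Cma1, Fcer1a, Ms4a2, Kit, Tpsab1, Prg2 and Ccr3), their log2 level was 9.41, 10.26 and 11.21 in FAKWT, 10.05, 8.08 and 7.80 with vehicle, 11.99, 11.79 and 12.10 with the inhibitor and 12.70, 12.40 and 13.53 in FAKKD samples. The sample highest in Il1rl1 was the highest in these markers, and the lowest was the lowest. No marker of the list was at a count of 0 in any sample, and the smallest was a count of 4 for Ccr3. The sum adds linear levels and so mostly follows Cma1, with counts of 157 to 7675. Prg2 and Ccr3 had counts of 6 to 58 and 4 to 22 and add little to it. Single markers were not compared with Il1rl1. The part of these cells in the Il1rl1 result was not tested.

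**Figure D2:**
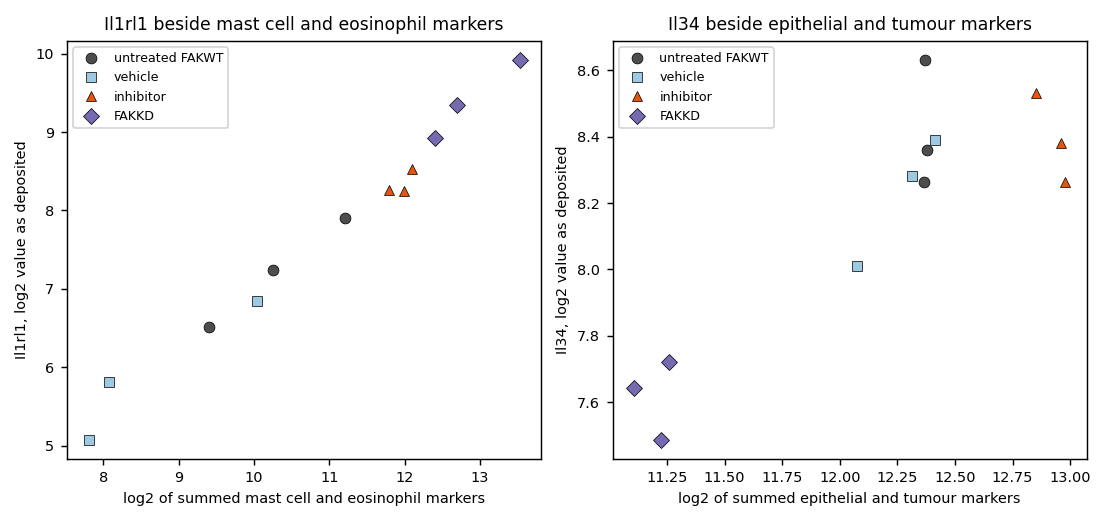
Deposited log2 value of Il1rl1 against the log2 of the summed mast cell and eosinophil markers (left) and of Il34 against the log2 of the summed epithelial and tumour markers (right), 1 point per sample, 12 samples in 4 groups. On the left the points run from vehicle replicate 9 (7.80 and 5.08) to FAKKD replicate 5 (13.53 and 9.92); on the right the 3 FAKKD samples lie apart at marker sums of 11.1 to 11.3.

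Il13ra1, which pairs with the IL-4 receptor alpha chain to bind IL-13 and IL-4, fell in FAKKD samples. It stood at 10.45, 10.30 and 10.41 in FAKWT and 9.99, 10.18 and 9.72 in FAKKD samples, against 10.16, 10.54 and 10.46 with vehicle and 10.50, 10.53 and 10.48 with the inhibitor. No FAKKD sample reached the lowest FAKWT sample, while vehicle replicate 3 lay below FAKKD replicate 4 and the inhibitor samples lay inside the range of the vehicle samples. The change was -0.43 ± 0.12 (adjusted p = 0.00838) and -1.48 ± 0.15 on the panel-relative scale (adjusted p = 3.76e-06), and it passed on both scales without each sample in turn. The inhibitor value was 0.12 ± 0.12 (adjusted p = 0.422), and on the panel-relative scale -0.62 (adjusted p = 0.00439). Il3ra, the alpha chain of the IL-3 receptor, was higher as deposited by 1.05 ± 0.13 in FAKKD samples and by 0.52 ± 0.13 with the inhibitor, and relative to the panel it had 0.00 and -0.23, which did not pass (adjusted p = 0.993 and 0.263).

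In the IL-12 family, Il12a rose with the inhibitor. It encodes the p35 chain, which forms IL-12 with the p40 chain of Il12b and IL-35 with the product of Ebi3. It stood at 3.21, 3.80 and 4.18 in FAKWT, 4.23, 4.16 and 2.98 with vehicle, 5.57, 5.36 and 5.74 with the inhibitor and 5.09, 5.06 and 5.83 in FAKKD samples. All control samples lay under 4.5 and all others above it, so its place above the floor comes from the change itself. The counts were 25, 20 and 11 with vehicle and 42, 36 and 43 with the inhibitor. The inhibitor value was 1.77 ± 0.37 (adjusted p = 0.00161) and 1.02 ± 0.35 on the panel-relative scale (adjusted p = 0.0283). Relative to the panel it no longer passed without vehicle replicate 9 (0.67, adjusted p = 0.122), inhibitor replicate 4 (1.01, adjusted p = 0.0698) or inhibitor replicate 6 (0.87, adjusted p = 0.0965), while against untreated FAKWT it passed on both scales (1.83 and 0.97). In FAKKD samples it was 1.59 ± 0.37 and 0.54 relative to the panel, which did not pass (adjusted p = 0.201).

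Ebi3, which is no member, rose with the inhibitor as well, by 1.88 ± 0.26 and by 1.14 on the panel-relative scale (adjusted p = 7.62e-05 and 0.00221). In FAKKD samples it was higher as deposited by 1.66 ± 0.26 and had 0.61 on the panel-relative scale (adjusted p = 0.0511). The difference Il12a minus Ebi3 within a sample was -1.53 ± 0.72 (SD, n = 3) in FAKWT, -1.70 ± 0.71 with vehicle, -1.81 ± 0.19 with the inhibitor and -1.60 ± 0.46 in FAKKD samples. These 4 means differ by less than the spread within the control groups. Il12b stayed near the floor, with counts from 14 to 38, and did not pass on both scales in either comparison.

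Of the IL-17 family, Il17ra, the receptor chain for IL-17A and IL-17F, was the sole receptor above the floor. It had a mean of 8.19 ± 0.23 in FAKWT, 8.14 ± 0.17 with vehicle, 8.81 ± 0.07 with the inhibitor and 9.08 ± 0.19 in FAKKD samples (SD, n = 3). The values were higher as deposited by 0.88 ± 0.14 and 0.67 ± 0.14, and relative to the panel -0.17 and -0.08 did not pass (adjusted p = 0.257 and 0.642). Its recovered counts were 357 to 441 in FAKWT and 326 to 439 in FAKKD samples, which overlap.

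In the IL-10 family, Il10ra, the ligand-binding chain of the IL-10 receptor on macrophages and lymphocytes, rose in both comparisons. It stood at 6.75, 7.36 and 7.26 in FAKWT, 7.72, 7.50 and 7.24 with vehicle, 8.97, 9.27 and 9.0 with the inhibitor and 9.29, 9.35 and 9.01 in FAKKD samples. The 6 samples of the control groups lay below all 6 others, and the recovered counts did not overlap either, at 163 to 281 in the controls and 393 to 541 in the others. The changes were 2.09 ± 0.18 in FAKKD samples (adjusted p = 1.86e-06) and 1.59 ± 0.18 with the inhibitor (adjusted p = 2.22e-05). Relative to the panel they were 1.04 ± 0.14 (adjusted p = 3.61e-05) and 0.85 ± 0.14 (adjusted p = 2.93e-04). Both calls held on both scales without each sample in turn, and the inhibitor call held against untreated FAKWT (1.96 and 1.10).

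Markers of macrophages and lymphocytes, cells known to carry Il10ra or Il21r, were measured in the same samples. The summed log2 level of macrophage markers (8 of 9 measured) ran from 13.3 to 13.6 in FAKWT, 13.6 to 13.9 with vehicle, 14.7 to 14.8 with the inhibitor and 15.1 to 15.3 in FAKKD samples. That of B-cell markers (7 of 7) ran from 9.22 to 9.87, 9.40 to 10.2, 11.8 to 12.3 and 11.4 to 12.5 in the same order. That of T-cell markers (10 of 11) ran from 7.07 to 7.44, 7.03 to 7.80, 8.62 to 9.15 and 9.10 to 9.52. For NK markers (6 of 6) it ran from 6.61 to 7.08, 6.56 to 7.25, 7.19 to 7.81 and 7.76 to 8.37. All of these sums were higher in FAKKD than in FAKWT samples as deposited. Relative to the panel the NK sums overlapped, at 7.24 to 7.53 in FAKWT and 7.23 to 7.79 in FAKKD samples, while the macrophage sums (13.9 to 14.0 and 14.5 to 14.7), the B-cell sums (9.85 to 10.30 and 10.84 to 11.98) and the T-cell sums (7.67 to 7.90 and 8.57 to 8.94) did not. No marker was at a count of 0, and the part of these cells in the Il10ra and Il21r results was not tested.

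Il22ra1, a chain of the receptors for IL-22, IL-20 and IL-24 that epithelial cells carry, fell in FAKKD samples. It stood at 7.67, 7.78 and 7.81 in FAKWT and 7.51, 7.47 and 7.38 in FAKKD samples, with 7.79, 7.56 and 7.46 with vehicle and 7.53, 7.69 and 7.69 with the inhibitor. FAKKD and FAKWT samples did not overlap, but the vehicle samples spanned nearly the whole range. The change was -0.30 ± 0.11 (adjusted p = 0.0304) and -1.35 ± 0.11 on the panel-relative scale (adjusted p = 6.94e-07). As deposited it did not pass without FAKWT replicate 2 (adjusted p = 0.0732), FAKWT replicate 3 (adjusted p = 0.0865), FAKKD replicate 4 (adjusted p = 0.0526) or FAKKD replicate 5 (adjusted p = 0.0840). Its inhibitor value was 0.04 ± 0.11 (adjusted p = 0.80) and -0.70 on the panel-relative scale (adjusted p = 2.69e-04).

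Among the IL-18 receptor chains, the ligand-binding chain Il18r1 and the signalling accessory chain Il18rap moved apart. Il18r1 stood at 4.65, 5.28 and 5.18 in FAKWT, 5.14, 5.33 and 5.25 with vehicle, 6.47, 6.41 and 6.62 with the inhibitor and 6.46, 6.54 and 6.50 in FAKKD samples. Every control sample lay under every inhibitor and FAKKD sample, at 5.33 or lower against 6.41 or higher. With the inhibitor it rose by 1.26 ± 0.18 (adjusted p = 8.73e-05) and by 0.52 ± 0.18 on the panel-relative scale (adjusted p = 0.0311), and that second value did not pass without inhibitor replicate 4 (adjusted p = 0.0683), inhibitor replicate 6 (adjusted p = 0.113), vehicle replicate 3 (adjusted p = 0.109) or vehicle replicate 4 (adjusted p = 0.0507). It passed against untreated FAKWT on both scales (1.47 and 0.61). In FAKKD samples it was higher as deposited by 1.47 ± 0.18 and had 0.41 on the panel-relative scale (adjusted p = 0.0645).

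Il18rap stood at 4.35, 5.44 and 5.34 in FAKWT, 5.04, 5.86 and 5.69 with vehicle, 4.57, 5.04 and 4.32 with the inhibitor and 5.21, 5.13 and 5.07 in FAKKD samples. The highest inhibitor sample and the lowest vehicle sample met at 5.04. The inhibitor value was -0.89 ± 0.32 (adjusted p = 0.0313) and -1.63 ± 0.29 on the panel-relative scale (adjusted p = 5.80e-04). As deposited it did not pass without inhibitor replicate 4 (adjusted p = 0.0785), inhibitor replicate 6 (adjusted p = 0.110), vehicle replicate 4 (adjusted p = 0.107) or vehicle replicate 9 (adjusted p = 0.0918), nor against untreated FAKWT (-0.40, adjusted p = 0.288). In FAKKD samples it had 0.09 ± 0.32 as deposited (adjusted p = 0.806) and -0.96 on the panel-relative scale (adjusted p = 0.0135).

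Of the other ligands, Il34 fell in FAKKD samples. IL-34 is a ligand of the macrophage receptor Csf1r beside Csf1. Il34 stood at 8.26, 8.63 and 8.36 in FAKWT, 8.39, 8.01 and 8.28 with vehicle, 8.38, 8.26 and 8.53 with the inhibitor and 7.49, 7.72 and 7.64 in FAKKD samples. The 3 FAKKD samples were the lowest of the 12 and the other groups overlapped. In recovered counts it went from 466, 512 and 398 in FAKWT to 126, 127 and 155 in FAKKD samples. The change was -0.80 ± 0.14 (adjusted p = 2.64e-04) and -1.85 ± 0.15 on the panel-relative scale (adjusted p = 6.31e-07), and it passed on both scales without each sample in turn. Its inhibitor value was 0.16 ± 0.14 (adjusted p = 0.315) and -0.58 on the panel-relative scale (adjusted p = 0.00771).

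In FAKKD samples Il34, Il13ra1 and Il22ra1 fell, and the sum of the epithelial and tumour markers was lower too. The summed log2 level of the 5 of 8 markers measured (Epcam, Cdh1, Msln, Muc1 and Itgb4) was 12.4 in each FAKWT sample, 12.1 to 12.4 with vehicle, 12.9 to 13.0 with the inhibitor and 11.1 to 11.3 in FAKKD samples. Relative to the panel these sums were 12.8 to 13.0, 12.4 to 12.8, 12.5 to 12.6 and 10.6 to 10.7. No marker was at a count of 0, with the smallest at 16 for Cdh1. The sum adds linear levels and so mostly follows Msln, with counts of 1268 to 6704, against 133 to 1246 for Itgb4 and fewer for the others. Single markers were not compared between groups. As deposited, stromal, mesothelial and endothelial markers (7 of 8) had log2 sums of 12.3 to 12.7 in FAKWT and 12.5 to 13.1 in FAKKD samples. Their sum was lower with the inhibitor (11.6 to 11.7) than with vehicle (12.4 to 12.5), while Il34, Il13ra1 and Il22ra1 were not lower. Relative to the panel it was 12.93 to 13.16 in FAKWT and 11.99 to 12.56 in FAKKD samples. On that scale it was 12.76 to 13.01 with vehicle and 11.24 to 11.35 with the inhibitor. The part of epithelial, tumour or stromal cells in the results for Il34, Il13ra1 and Il22ra1 was not tested.

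Il16, a chemoattractant of CD4 cells, had a mean of 7.88 ± 0.06 in FAKWT, 7.76 ± 0.10 with vehicle, 8.14 ± 0.13 with the inhibitor and 7.63 ± 0.12 in FAKKD samples (SD, n = 3). With the inhibitor it was higher as deposited by 0.38 ± 0.11 (adjusted p = 0.0101) and lower relative to the panel by -0.36 ± 0.12 (adjusted p = 0.0253). In FAKKD samples it had -0.25 ± 0.11 as deposited (adjusted p = 0.0557) and -1.30 ± 0.12 on the panel-relative scale (adjusted p = 1.58e-06). Il11ra1, the receptor of IL-11, passed in neither comparison on either scale, with 0.41 and 0.25 as deposited and -0.64 and -0.49 relative to the panel.

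**Figure D3:**
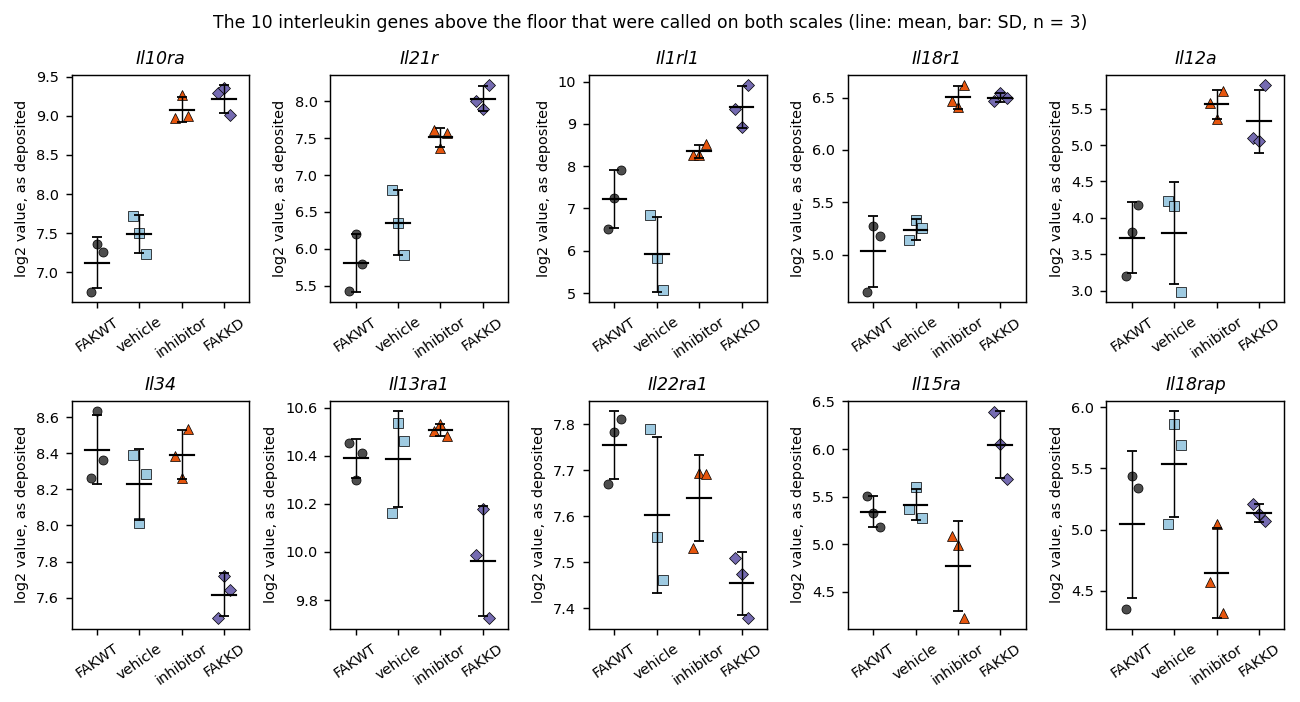
Deposited log2 value (y axis, a separate scale in each panel) of the 10 interleukin genes above the floor that passed on both scales in FAKKD against FAKWT or in inhibitor against vehicle samples, by group (x axis). Points are samples, the line is the mean and the bar the SD of 3 samples. Il10ra separates the 6 control samples from the other 6, and the 3 FAKKD samples are the lowest of the 12 in Il34. Il12a is above the floor only through its inhibitor and FAKKD samples.

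Whether the FAKKD and inhibitor effects differ was tested as the difference of the 2 changes. It passed for 6 members as deposited, 3 higher and 3 lower in FAKKD (16.3% and 7.60% of the panel, 23.9% together), and for 5 of them on both scales (11.4% of members, 18.8% of the panel, of which 11.2% were higher and 7.60% lower). The difference was -0.97 ± 0.19 for Il34 (adjusted p = 0.00517), -0.63 ± 0.15 for Il16 (adjusted p = 0.0122) and -0.55 ± 0.17 for Il13ra1 (adjusted p = 0.0405). It was 2.26 ± 0.47 for Il4 (adjusted p = 0.00601), 1.35 ± 0.36 for Il15ra (adjusted p = 0.0195) and 1.08 ± 0.33 for Il21r (adjusted p = 0.0363), and Il21r did not pass on the panel-relative scale (0.77, adjusted p = 0.0834). Il34, Il16 and Il4 held on both scales without each of the 12 samples in turn. Each difference also takes in the gap between the 2 control groups, as vehicle minus FAKWT. That gap was 0.91 ± 0.33 for Il4 and 0.55 ± 0.24 for Il21r. For Il15ra, Il16, Il34 and Il13ra1 it was 0.07, -0.12, -0.19 and -0.00. The mean of Il4 was 4.78 in FAKKD and 3.43 in inhibitor samples, and that of Il21r 8.04 and 7.51. The difference was not run with 1 common control. Il10ra, Il1rl1, Il12a, Il18r1 and Il18rap did not pass (adjusted p = 0.169, 0.787, 0.835, 0.597 and 0.136), which does not show that both effects were alike.

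Some members act together in 1 receptor or as ligand and receptor, and their difference within a sample does not depend on the sample's factor. Probes differ in efficiency, so these differences can be compared between groups but not read as a ratio of molecules in the cell. The pairs were chosen after their values were seen and are given as a description, with no test. Il18r1 minus Il18rap was 0.29, -0.16 and -0.16 in FAKWT, 0.10, -0.53 and -0.44 with vehicle, 1.89, 1.37 and 2.30 with the inhibitor and 1.25, 1.42 and 1.43 in FAKKD samples. All control samples lay at 0.29 or lower and all others at 1.25 or higher. Il15 minus Il15ra had means of -1.32 ± 0.39 in FAKWT, -1.15 ± 0.45 with vehicle, 0.47 ± 0.49 with the inhibitor and -0.52 ± 0.43 in FAKKD samples (SD, n = 3). Its inhibitor samples lay above all others, while FAKKD samples overlapped the controls.

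Csf1r minus Il34, a receptor and its ligand, had means of 1.45 ± 0.11 in FAKWT, 1.85 ± 0.24 with vehicle, 3.55 ± 0.16 with the inhibitor and 4.45 ± 0.11 in FAKKD samples. The 3 sets of untreated FAKWT or vehicle, inhibitor and FAKKD samples did not overlap. Il21r minus Il2rg, the chains of the IL-21 receptor, had means of -2.62 ± 0.26, -1.78 ± 0.44, -1.10 ± 0.11 and -0.68 ± 0.16 in the same order. Il2rb minus Il2rg had -3.17 ± 0.04, -2.61 ± 0.20, -2.38 ± 0.09 and -1.93 ± 0.51. In both pairs every FAKWT sample lay under every FAKKD sample. Inhibitor and vehicle samples did not overlap for Il21r minus Il2rg, and they overlapped for Il2rb minus Il2rg, at -2.46 to -2.29 and -2.79 to -2.39.

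**Figure D4:**
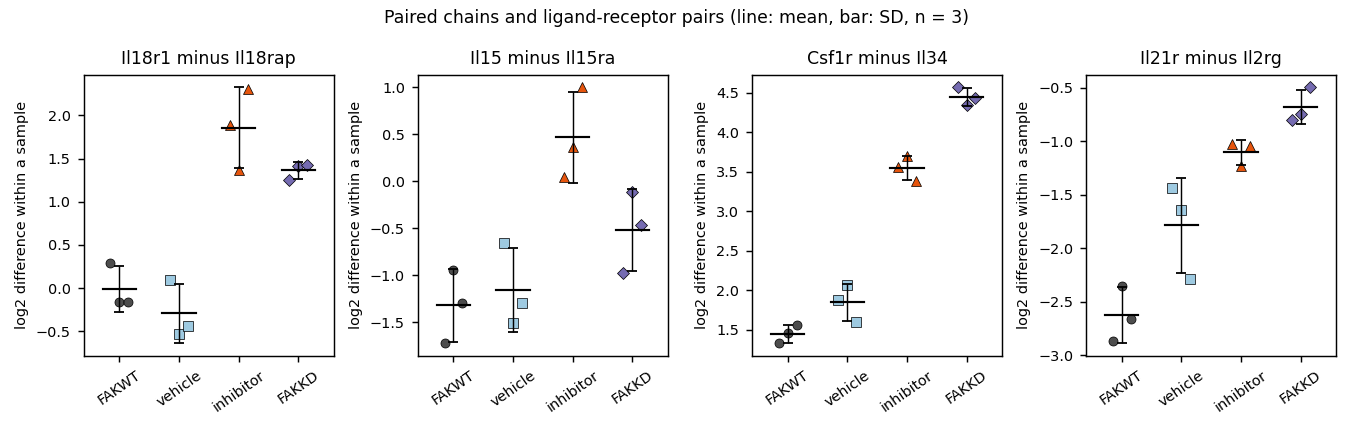
Difference of log2 values within a sample (y axis, a separate scale in each panel) for 4 pairs of genes that act together, by group (x axis); points are samples, the line is the mean and the bar the SD of 3 samples. Csf1r minus Il34 is lowest in FAKWT samples at 1.45 and highest in FAKKD samples at 4.45, and Il15 minus Il15ra is highest with the inhibitor at 0.47.

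The 27 members near the floor were better read as counts. Each had between 2 and 38 molecules in a sample, and mean counts ran from 7.42 (Il3) to 22.6 (Il25). Summed over the 27 genes, the samples held 385 to 434 molecules in FAKWT, 391 to 452 with vehicle, 385 to 418 with the inhibitor and 360 to 440 in FAKKD samples, so the 4 groups overlapped. As deposited 14 of the 27 were called higher in FAKKD samples (65.1% of the panel) and 6 with the inhibitor (49.2%), and relative to the panel 1 and 0 were (23.6% and 17.7%). Whether these genes hold signal above the assay's background cannot be told here, since negative control probes were not analysed.

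The gamma-chain ligand Il4, the cytokine of type 2 helper T cells, basophils and mast cells, was the near-floor gene that passed on both scales in FAKKD samples. Its counts were 11, 9 and 6 in FAKWT, 13, 19 and 14 with vehicle, 14, 7 and 8 with the inhibitor and 18, 20 and 19 in FAKKD samples. The group sums were 26 (95% exact Poisson interval 17 to 38.1), 46 (33.7 to 61.4), 29 (19.4 to 41.6) and 57 (43.2 to 73.9) in that order, covering counting error only. The counts of FAKKD and vehicle samples overlap, while the intervals of FAKWT and FAKKD sums do not overlap. The change in FAKKD samples was 2.13 ± 0.33 (adjusted p = 1.42e-04) and 1.08 ± 0.35 on the panel-relative scale (adjusted p = 0.0196), and that second value did not pass without FAKWT replicate 3 (adjusted p = 0.0787) or FAKKD replicate 4 (adjusted p = 0.0657). Its inhibitor value was -0.14 ± 0.33 (adjusted p = 0.753).

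Il11, a cytokine that signals through gp130, also had separated counts. They were 10, 9 and 8 in FAKWT, 12, 11 and 11 with vehicle, 15, 18 and 18 with the inhibitor and 13, 15 and 15 in FAKKD samples. Both comparisons were higher as deposited (1.63 ± 0.23 and 1.16 ± 0.23) and neither passed on the panel-relative scale (adjusted p = 0.0609 and 0.187), but the inhibitor value passed on both scales against untreated FAKWT (1.56 and 0.70). Summed counts had overlapping intervals, 27 (17.8 to 39.3) in FAKWT, 34 (23.5 to 47.5) with vehicle, 51 (38.0 to 67.1) with the inhibitor and 43 (31.1 to 57.9) in FAKKD samples.

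Beside these, counts before any scaling were lower in all FAKKD than in all FAKWT samples for Il17f and Il19, and lower with the inhibitor than with vehicle for Il23a, Il25 and Il27, the ligand chains of IL-23, IL-25 and IL-27. In all 2 of 27 were higher and 2 lower in FAKKD samples, against 27.9% and 32.3% of the panel, and 1 was higher and 3 lower with the inhibitor, against 23.7% and 25.7% of the panel. Il19 was the near-floor member that passed as lower relative to the panel in both comparisons, with summed counts of 71 in FAKWT, 65 with vehicle, 43 with the inhibitor and 47 in FAKKD samples. The other gamma-chain ligands near the floor had group sums of 33 to 44 for Il2, the T-cell growth factor, 39 to 56 for Il7, 21 to 31 for Il9 and 29 to 57 for Il21. For Il17a, a product of type 17 T cells, they were 22 to 30, and for Il13 and Il5, cytokines of type 2 immunity, 41 to 56 and 41 to 53. The remaining ligands had group sums of 20 to 26 (Il3), 23 to 38 (Il17f), 32 to 48 (Il24), 40 to 43 (Il17b), 43 to 58 (Il27), 47 to 56 (Il22), 54 to 78 (Il23a) and 63 to 74 (Il25).

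The near-floor receptors did not pass on both scales in either comparison. These were the IL-12 receptor chains Il12rb1 and Il12rb2, the IL-23 receptor Il23r, the IL-25 receptor Il17rb, the decoy receptors Il13ra2 for IL-13 and Il22ra2 for IL-22, the IL-36 receptor Il1rl2 and Il1rapl2. Group sums ran from 30 to 47 for Il12rb1, 34 to 46 for Il12rb2, 36 to 52 for Il23r and 46 to 85 for Il17rb. They ran from 35 to 52 for Il13ra2, 44 to 57 for Il22ra2, 63 to 69 for Il1rl2 and 42 to 51 for Il1rapl2. Il17rb was uneven within groups, for example 30, 28 and 12 with vehicle and 23, 10 and 13 in FAKKD samples.

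**Figure D5:**
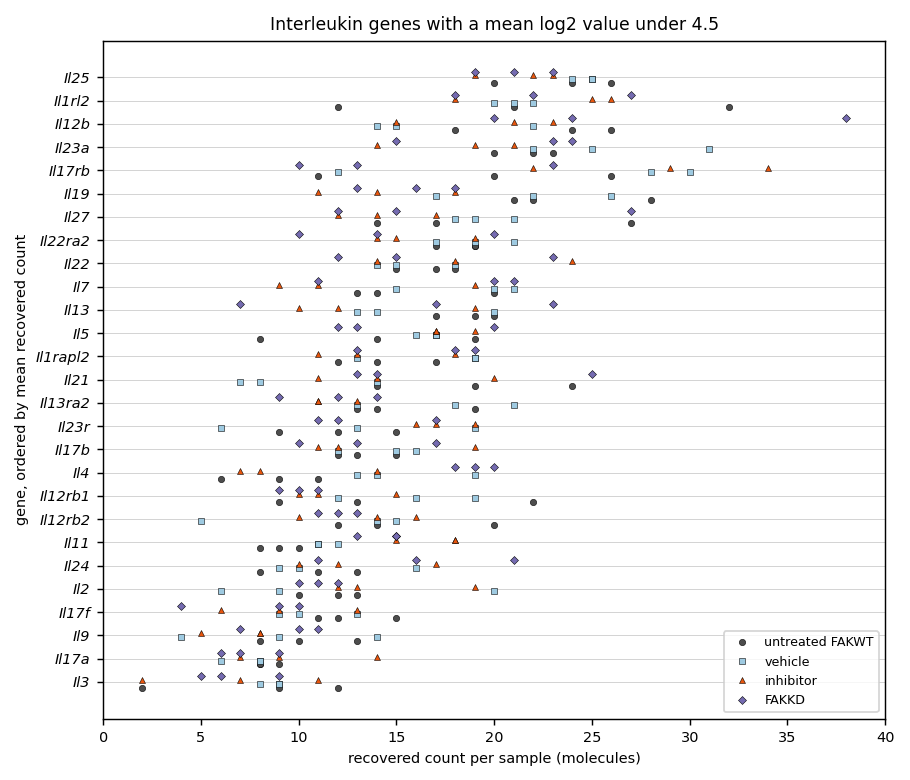
Recovered molecules per sample (x axis) for the 27 interleukin genes with a mean log2 value under 4.5 (y axis, ordered by mean count), 1 point per sample and a symbol per group. Counts range from 2 to 38 and the groups overlap for most genes; for Il4 the FAKKD samples lie at 18 to 20 and the FAKWT samples at 6 to 11.

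JAK kinases, STAT factors and SOCS inhibitors carry or limit the signals of most of these receptors inside the cell. Of 13 listed JAK, STAT and SOCS genes 12 were measured. In FAKKD samples 10 were higher and 0 lower as deposited, with a median log2 fold change of 0.65, while on the panel-relative scale these counts were 0 and 6. The panel's median was 0.95, with 65.1% of its genes higher and 9.47% lower as deposited and 23.6% and 34.5% on the other scale. With the inhibitor 8 were higher and 1 lower as deposited (49.2% and 10.5% of the panel), and 1 and 3 on the panel-relative scale (17.7% and 28.8%). Passing on both scales with the inhibitor were Stat5b, a transcription factor downstream of IL-2 and IL-15, at 1.04 ± 0.08 and 0.30 on the panel-relative scale (adjusted p = 2.06e-06 and 0.0266), and Socs1, an inhibitor of JAK signalling, at -1.03 ± 0.17 and -1.77 (adjusted p = 2.74e-04 and 1.29e-05). Against untreated FAKWT, Stat5b had 1.01 as deposited but 0.16 on the panel-relative scale, which did not pass (adjusted p = 0.219). Socs1 passed on both scales against that control (-0.99 and -1.84). Socs1 had 0.06 ± 0.17 in FAKKD samples (adjusted p = 0.761), and its 2 changes differed by 1.09 ± 0.24 as deposited (adjusted p = 0.00723) and 0.78 on the other scale (adjusted p = 0.0524).

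Of 8 listed partner chains and co-ligands 7 were measured (Ebi3, Csf2rb, Csf2, Csf1, Csf1r, Myd88 and Traf6). In FAKKD samples 5 were higher and 0 lower as deposited (65.1% and 9.47% of the panel), and 1 and 3 on the panel-relative scale (23.6% and 34.5%). With the inhibitor these counts were 5 and 1 (49.2% and 10.5% of the panel), and 3 and 2 (17.7% and 28.8%). Csf1r, the receptor of IL-34, rose by 2.20 ± 0.12 in FAKKD samples and by 1.86 ± 0.12 with the inhibitor, and by 1.15 and 1.12 relative to the panel. Its other ligand Csf1 rose with the inhibitor by 1.26 ± 0.16 and 0.52 on the panel-relative scale (adjusted p = 5.59e-05 and 0.00493), while in FAKKD samples it had 0.38 as deposited (adjusted p = 0.0514) and -0.67 on the panel-relative scale (adjusted p = 6.04e-04). Csf2, a ligand that shares the chain Csf2rb with IL-3 and IL-5, fell with the inhibitor against vehicle. The change was -1.25 ± 0.42 as deposited (adjusted p = 0.0229), while the panel-relative value was -1.99 (adjusted p = 0.00131). With untreated FAKWT as the control, the deposited value of -0.37 did not pass (adjusted p = 0.444), whereas the panel-relative value of -1.23 did (adjusted p = 0.0214). The fall on both scales thus rests on the vehicle samples as controls. Mean Csf2 values were low, at 4.26 in FAKWT, 5.14 with vehicle and 3.89 with the inhibitor.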

How the data were processed

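Cells from peritoneal ascites were measured in 12 samples, grouped by title, and the authors deposited 1 table of normalized log2 values for 750 genes. The sources used here do not give the software, background handling or reference genes behind the deposited log2 values. All 12 columns matched a sample. Counts were recovered as 2 raised to the value, divided by the sample's factor. Replicates differed by more than sampling noise, with a chi-square per degree of freedom of 8.35 to 59.6. Tests used limma 3.58.1 in R 4.3.3 (lmFit with 4 group means over all 12 samples, contrasts.fit, eBayes with trend), two-sided, with Benjamini-Hochberg adjustment over 750 genes at 0.05, no filter and no pseudocount. The step was also run on simulated data with as many genes raised as lowered. The real data shift mostly upward, so that run does not bear on the choice of scale. Errors of fold changes are standard errors. The smallest two-sided p of an exact permutation test at this group size is 0.1.

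The members and lists were chosen with earlier results of these data known, so no pattern here is independent of them. Members above a mean of 4.5 that passed on both scales are given in every sample, others by means, ranges or counts. The counts of Il4, Il11, Il12b, Il17ra, Il17rb and Il2rg, the gene pairs and the promoters shown were picked after their values were seen. All 44 symbols matched a RefSeq gene table of GRCm38.p6. Figures were drawn with matplotlib 3.10.9.

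Alternatives were panel median, quantile and total count scaling, filters, a pseudocount of 5, other variance models, only the compared groups, a threshold of 0.1, another control and leaving out each sample. Leaving out samples on both scales together, and the other control on both scales, were added after seeing the data.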

Additional observations from a re-analysis of the deposited data

Results flagged for a closer look

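Of the 44 members, 6 are listed because their FAKKD and inhibitor effects differed by a test of the difference itself (limma, adjusted over 750 genes). The difference, as the FAKKD change minus the inhibitor change in log2 units, was -0.97 for Il34, -0.63 for Il16 and -0.55 for Il13ra1. It was 2.26 for Il4, 1.35 for Il15ra and 1.08 for Il21r. Il34 was lower in 3 of 3 FAKKD samples than in any other sample, and Il15ra was lowest in the 3 inhibitor samples and highest in the 3 FAKKD samples. For Il16 the inhibitor samples were higher than vehicle and the FAKKD samples lower than FAKWT as deposited, with changes of 0.38 and -0.25. Il4 rests on counts of 6 to 20. On both scales, Il15ra did not pass without FAKWT replicate 2 or 3, inhibitor replicate 5 or 6, FAKKD replicate 3 or 4, or any 1 vehicle sample. Il13ra1 did not pass without FAKWT replicate 1 or 3, any 1 inhibitor sample, FAKKD replicate 3 or 5, or vehicle replicate 3. The inhibitor change in these values uses vehicle samples whose genotype field disagrees with their titles. The differences also take in the gap between vehicle and untreated FAKWT samples, which was 0.91 for Il4 and 0.55 for Il21r.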

How the results depend on the processing

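No paired analysis was possible because the groups compared share fewer than 2 replicate numbers. Scaling decides most counts. Under panel median, quantile and total count scaling the members called in FAKKD samples went from 28 to 11, 13 and 13, those higher from 25 to 4, 5 and 6, and those lower from 3 to 7, 8 and 7. With the inhibitor the calls went from 19 to 11, 8 and 9, those higher from 17 to 4, 5 and 4, and those lower from 2 to 7 under median and 5 under total count scaling. For the difference of effects those lower went from 3 to 5 under all 3 scalings, and those higher from 3 to 1 under total count scaling and to 5 at a threshold of 0.1.

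Fewer members are tested under filters. Dropping the lowest 25% of genes left 14 calls in FAKKD (10 higher) and 12 with the inhibitor (10 higher), and dropping means under 4.5 left 15 (11 higher) in FAKKD and 11 higher with the inhibitor. Il12a and Il15 pass the limit of 4.5 only through their higher inhibitor and FAKKD samples, so that filter is not independent of their calls. Lower calls with the inhibitor went to 1 under the pseudocount of 5, 1 with only the compared groups and 0 against untreated FAKWT, on both scales also 0.

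Leaving out 1 sample at a time gave, in FAKKD, 21 to 29 calls (18 to 27 higher, 2 to 4 lower), and on both scales 5 to 8 (3 to 4 higher, 2 to 4 lower). With the inhibitor it gave 13 to 20 (13 to 20 higher, 0 to 2 lower), and on both scales 2 to 6 (2 to 4 higher, 0 to 2 lower). For the difference it gave 4 to 6 (1 to 4 higher, 2 to 3 lower), and on both scales 3 to 5 (1 to 2 higher, 2 to 3 lower). Vehicle against FAKWT had 0 calls in every alternative run.

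Of 758 alternatives for 45 values of single genes, 632 kept direction and side of the threshold, 74 no longer passed, 8 newly passed and 44 changed sign. Under panel median, quantile and total count scaling, the FAKKD values turned to -0.64, -0.82 and -0.61 for Il11ra1, -0.35, -0.52 and -0.31 for Il15ra, -0.96, -1.09 and -0.93 for Il18rap and -0.76, -0.39 and -0.72 for Il2rg. The inhibitor values turned to -0.49, -0.34 and -0.36 for Il11ra1, -0.62, -0.26 and -0.50 for Il13ra1, -0.36, -0.065 and -0.24 for Il16, -0.70, -0.55 and -0.58 for Il22ra1, -0.58, -0.29 and -0.45 for Il34 and -0.23, -0.21 and -0.10 for Il3ra. Under median and total count scaling, Il17ra in FAKKD turned to -0.17 and -0.14 and Il2rg with the inhibitor to -0.26 and -0.14. With the inhibitor, Il2rb turned to -0.034 under median and -0.050 under quantile scaling, and Il17ra to -0.076 under median scaling. Leaving out 1 sample gave -0.25 (without FAKWT replicate 1) to 0.29 for Il18rap in FAKKD, and with the inhibitor -0.034 (without vehicle replicate 9) to 0.13 for Il22ra1 and -0.41 to 0.12 for Il4. Against untreated FAKWT, inhibitor values turned to -0.12 for Il22ra1, -0.027 for Il34 and 0.78 for Il4. Il4 also turned to 0.08 without inhibitor replicate 5 and to 0.12 without vehicle replicate 4. The turns under panel median scaling follow from its shift, and the cause of the others was not tested. Depth limits the 27 genes near the floor, at 2 to 38 counts a sample.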
